A study of Mus musculus with 12 samples.

Results

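Axin2, Lef1, Tcf7, Nkd1, Apcdd1, Notum, Rnf43, Znrf3, Ccnd1 and Tnfrsf19 are genes widely used as readouts of canonical Wnt signalling. They were described here in endothelial cells sorted from mouse embryonic hearts. The 10 genes were found by matching Ensembl identifiers of the count table to gene symbols, each gave 1 row of the 41214 in the table, and all 10 were among the 15171 genes with enough counts to be tested. In canonical signalling a secreted Wnt protein binds a Frizzled receptor and an LRP co-receptor, which stops a cytoplasmic destruction complex from degrading beta-catenin. Beta-catenin then enters the nucleus and joins TCF/LEF factors at the genes they bind. Many of the genes switched on in this way encode inhibitors of the pathway, so their transcripts are read as feedback targets, and some of them, such as the gene of cyclin D1, also answer to other signals.

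The libraries are bulk RNA-seq of 4 groups: coronary (n = 2) and endocardial (n = 2) cells of E17 hearts, and coronary (n = 4) and endocardial (n = 4) cells of E13 hearts. Endocardial cells line the heart chambers, and coronary cells belong to the vessels of the ventricular wall. The E17 embryos were collected at E17.5, carried Nes-Gfp (Tg/0) with the added alleles R26 (tom/+) and Nes-CreER (Tg/0), and had been exposed to 0.1 ug of tamoxifen at E15.5. The E13 embryos were collected at E13.5 and carried Nes-gfp (Tg/0), and no tamoxifen is given for them in the labels. All 4 groups thus carry the reporter in which nestin sequence drives GFP, and stage is tied to the extra alleles and to tamoxifen. Every sort took cells positive for CD31 and negative for DAPI, Ter119 and CD45. The E17 coronary sort was Emcn-low with 2 gates, one for arteries and capillaries (Tomato+) and one for veins (Tomato-), and the labels do not say which gate supplied the libraries. At E17 the endocardial gate is given as GFP+. The E13 coronary gate was GFP+ and the E13 endocardial gate GFP-low and Emcn-high. Each batch label, 5 and 6 at E17 and 1 to 4 at E13, covers 1 coronary and 1 endocardial library. Whether replicates came from separate litters is not in the labels, so each p-value measures the spread between these libraries.

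Library totals ran from 14973633 to 27360653 expected counts. Levels are given in CPM, a count scaled to library size, as mean ± SD, and differences as log2 fold change ± SE. A gene was called when its edgeR adjusted p was under 0.05 over all 15171 genes tested. The endothelial label was described with 13 pan-endothelial genes, Pecam1 among them. Their summed level was 14424.6 and 16264.0 CPM in E17 coronary, 11431.7 and 12109.1 CPM in E17 endocardial, 7223.3 to 9827.2 CPM in E13 coronary and 10323.1 to 11409.1 CPM in E13 endocardial libraries. Pecam1, the gene of CD31, averaged 1971 CPM in E17 coronary, 1501 CPM in E17 endocardial, 1024 CPM in E13 coronary and 1224 CPM in E13 endocardial libraries. Every sort selected CD31, so the Pecam1 level is no check of the label. Genes listed as fibroblast and mesenchymal were also detected, and which cells held their transcripts was not tested. In E13 endocardial libraries most of their sum was Col3a1 and Col5a1, at means of 1172.6 and 427.0 CPM. Col1a1 and Dpt averaged 18.2 and 0.142 CPM there, against 710.0 and 11.3 CPM in E13 coronary libraries. The summed level of 11 fibroblast and mesenchymal genes was 4432.5 and 2042.9 CPM in the E17 coronary, 2260.0 and 2297.3 CPM in the E17 endocardial, 2746.4 to 6641.1 CPM in the E13 coronary and 1600.9 to 1914.8 CPM in the E13 endocardial libraries.

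Of the 10 target genes, 9 were higher in coronary than in endocardial libraries at E13, against 30.1% of all genes called higher in that comparison, and 0 were lower, against 29.9%. They included the TCF/LEF factors Lef1 and Tcf7 and all 6 feedback inhibitors, and the median log2 fold change of the 10 was 2.45, against -0.02 over all genes tested. The exception was Ccnd1. In bulk RNA, a smaller number of cells of a type and less RNA per cell cannot be told apart, and the same is true of each difference below.

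Lef1 (chr3:131110471-131224356, GRCm38, plus strand) and Tcf7 (chr11:52252371-52283014, minus strand) encode HMG-box factors that bind DNA and recruit beta-catenin. Lef1 stood at 6.65, 15.1, 24.1 and 13.4 CPM in E13 coronary replicates 1 to 4, against 0.752, 0.961, 0.65 and 0.951 CPM in E13 endocardial replicates 1 to 4. All coronary libraries lay above all endocardial ones, and coronary replicate 3 was the highest and replicate 1 the lowest. The log2 fold change was 4.16 ± 0.36 (edgeR adjusted p = 1.07e-06). Tcf7 had 6.22, 9.44, 10.4 and 11 CPM in the coronary libraries, against 2.1, 1.83, 1.35 and 1.13 CPM in the endocardial ones, again without overlap. Its difference was smaller than that of Lef1, at 2.51 ± 0.25 (edgeR adjusted p = 2.92e-06).

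Axin2 (chr11:108920349-108950783, plus strand) encodes a scaffold of the destruction complex and is a common reporter of the pathway. Its levels were 6.98, 12.9, 13.8 and 13.55 CPM in E13 coronary replicates 1 to 4, against 2.25, 2.79, 2.1 and 1.9 CPM in the E13 endocardial ones. Coronary replicate 1 lay well under the other 3 coronary libraries, which were close together, and still above every endocardial library. The difference was 2.38 ± 0.25 on the log2 scale (edgeR adjusted p = 5.16e-06). Nkd1 (chr8:88521354-88594884, plus strand), whose product binds Dishevelled and dampens the signal inside the cell, stood at 55.8, 69.7, 66.6 and 72.1 CPM in coronary libraries, against 16.9, 14.3, 16.1 and 13.7 CPM in endocardial ones. The 2 groups were each narrow and far apart, and the log2 fold change of 2.11 ± 0.12 had the smallest adjusted p of the 10 genes (edgeR adjusted p = 3.69e-08).

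Inhibitors that act at the cell surface or outside it were also higher. Apcdd1 (chr18:62922231-62961179, plus strand), a membrane protein that binds Wnt and LRP proteins, had 110.0, 154.0, 144.0 and 154.0 CPM in E13 coronary libraries, against 26.2, 25.7, 25.0 and 30.3 CPM in E13 endocardial ones (2.39 ± 0.14, edgeR adjusted p = 3.98e-08). Notum (chr11:120653788-120661175, minus strand) encodes a secreted enzyme that removes the lipid from Wnt proteins. It had 2.0, 6.02, 8.47 and 4.64 CPM in the coronary libraries, against 0.263, 0.192, 0.3 and 0.416 CPM in the endocardial ones. These come from 431 and 24 counts in all, and the log2 fold change was 4.17 ± 0.43 (edgeR adjusted p = 4.96e-06). The coronary libraries all lay above the endocardial ones, and replicate 1 was again the lowest of them. Rnf43 and Znrf3 encode ubiquitin ligases that remove Frizzled receptors from the membrane. Rnf43 (chr11:87662722-87735539, plus strand) ranged from 1.08 to 2.52 CPM in coronary and from 0.048 to 0.263 CPM in endocardial libraries (3.61 ± 0.49, edgeR adjusted p = 4.55e-05). Znrf3 (chr11:5276324-5444847, minus strand) ranged from 8.76 to 15.2 CPM in coronary and from 4.4 to 6.69 CPM in endocardial libraries (1.14 ± 0.18, edgeR adjusted p = 0.000172), the smallest rise of the 9.

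Tnfrsf19 (chr14:60963875-61046490, minus strand), which encodes a receptor of the TNF receptor superfamily also called TROY, had the largest difference of the 10 genes. It stood at 5.3, 16.8, 19.6 and 11.1 CPM in E13 coronary libraries, against 0.526, 0.817, 0.4 and 0.654 CPM in E13 endocardial ones (4.46 ± 0.40, edgeR adjusted p = 1.38e-06). Ccnd1 (chr7:144929931-144939925, minus strand) encodes cyclin D1, which drives cells from G1 into DNA synthesis. It went the other way, with 264.0, 238.0, 265.0 and 260.0 CPM in coronary and 329.0, 307.0, 290.0 and 287.0 CPM in endocardial libraries. All coronary libraries lay below all endocardial ones, as in 27.9% of all genes, but the difference of -0.24 ± 0.10 did not pass the test (edgeR adjusted p = 0.0615, 95% interval -0.48 to -0.00). It passed as lower in 5 of 19 other settings, among them the batch as a block (-0.24, edgeR adjusted p = 0.00504). Ccnd1 shares 1100 exon bases with LTO1 on the opposite strand, and the libraries do not mark strand. LTO1 held 1349 counts in the E13 coronary libraries, where Ccnd1 held 20519.

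Per kilobase of exon, Ccnd1 was the most abundant of the 10 in E13 coronary libraries, at 54.6 CPM per kb, followed by Nkd1 at 14.5 and Apcdd1 at 10.9 CPM per kb. Levels of Tcf7, Tnfrsf19, Notum, Axin2, Lef1 and Znrf3 lay between 1.55 and 3.54 CPM per kb, and Rnf43 was at 0.29 CPM per kb. Much of the inhibitor transcript was therefore Nkd1 and Apcdd1, which were also the least variable of the 9 genes between the coronary libraries, with coefficients of variation of 10.9% and 14.8%. Those of Notum, Lef1 and Tnfrsf19 were 51.1%, 48.4% and 47.9%. The 9 genes called higher also did not overlap between the groups, as 27.6% of all genes did in that direction.

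**Figure D1:**
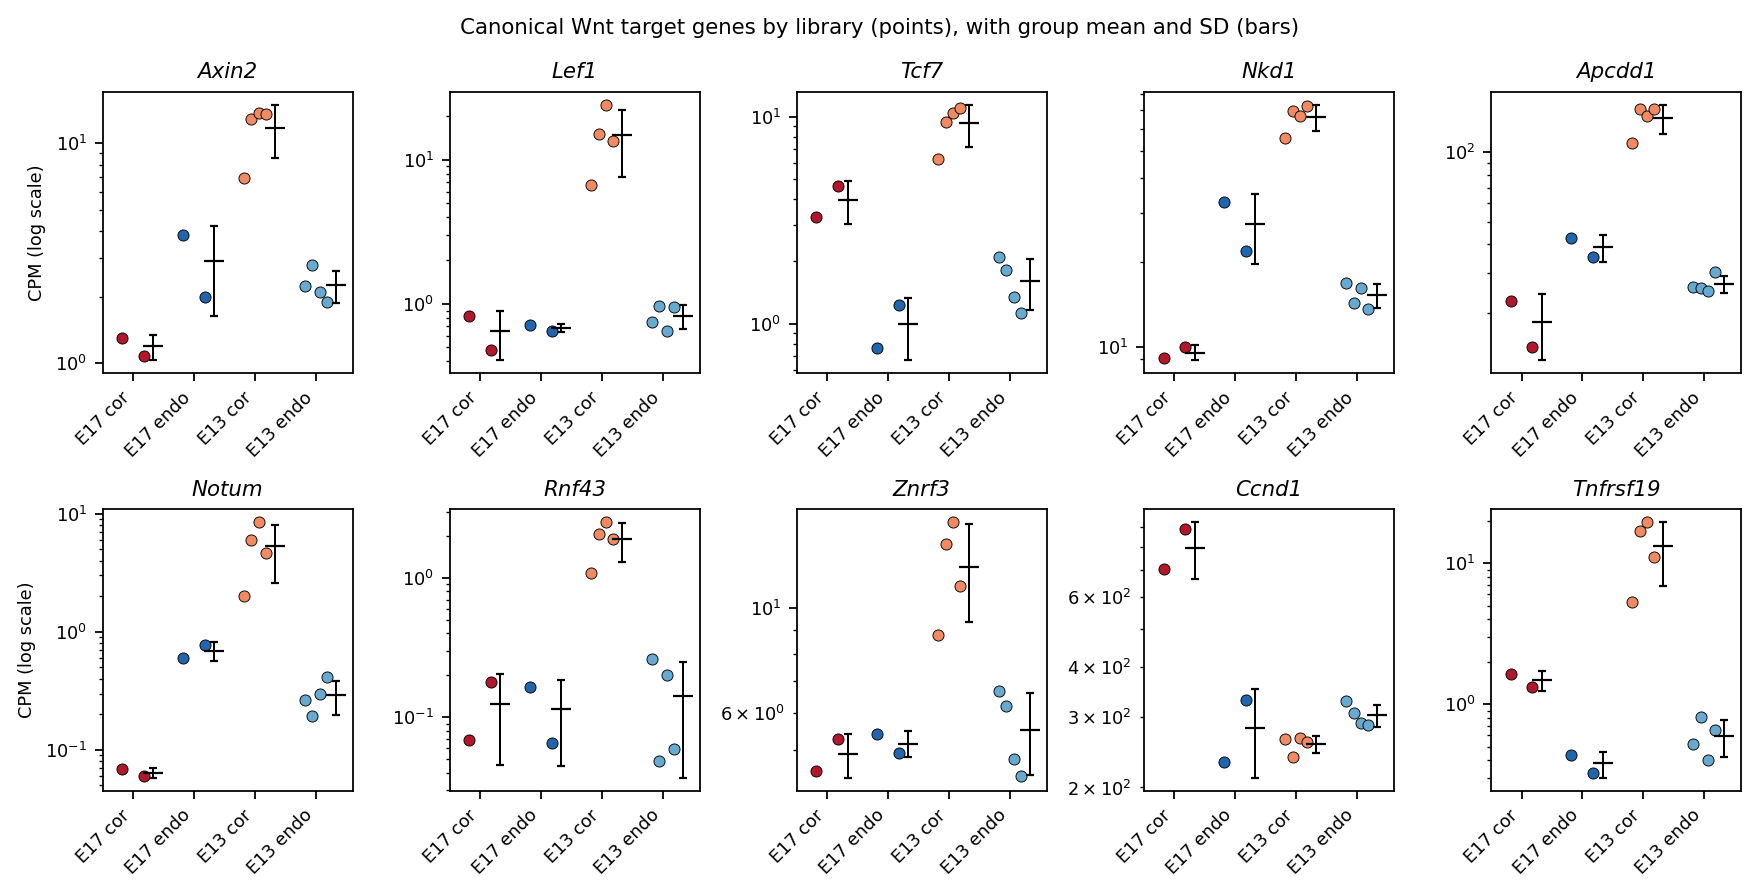
CPM of the 10 genes on a log axis in each library (points), with the group mean and SD (bars), for E17 coronary, E17 endocardial, E13 coronary and E13 endocardial libraries from left to right. In 9 panels the E13 coronary libraries stand above the other 3 groups, and in the Ccnd1 panel the E17 coronary libraries do, at 704.0 and 886.0 CPM.

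Within each E13 batch, 9 of the 10 genes were higher in the coronary than in the endocardial library. The lack of overlap in these 9 genes fixes that direction, so only the size of the ratio adds to it. In batches 1, 2, 3 and 4 the median log2 ratio of the 10 was 1.88, 2.48, 2.83 and 3.06. Lef1 was 8.85 times higher in batch 1 and 37.0 times higher in batch 3, and Tnfrsf19 was 10.1 and 48.9 times higher in those batches. Znrf3 ranged from 1.31 times higher in batch 1 to 3.17 times higher in batch 3. Apcdd1 varied least of the 9, from 4.21 to 5.96 times. Under each of the 19 other settings tried, which include leaving out every library in turn, 9 of the 10 genes were called higher. Scaling the libraries to the summed pan-endothelial genes moved the median of all genes by 0.40 and turned Ccnd1 to 0.16 (edgeR adjusted p = 0.24). With that scaling 86.3% of all calls were higher, against 50.2% with the usual one, and relative to its shift the 9 genes lay between 1.16 and 4.51 and Ccnd1 at -0.24. Taking off the shift nearly returns the usual values by construction, so these are no separate check.

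Apcdd1 was left out of the promoter search, and no window was available for Notum, Znrf3 and Ccnd1. For the remaining 6 of the 10 genes, windows from 250 bases before to 50 bases after a start were taken from the RefSeq promoter table (GRCm38.p6). They were searched on both strands for CTTTGA, the core letters of the TCF/LEF recognition sequence, and for the longer CTTTGAT, of which every match also holds the shorter motif. The shorter motif stood in 2 of the 12 windows, 1 of Lef1 and 1 of Tnfrsf19, against 16.0% of all 32817 windows, so its share was near the background. The longer one stood in 1 of the 12, of Tnfrsf19, against 3.7%. The 2 windows with a match are printed to show it, and the single window of Axin2, which has none, is printed for comparison. Capitals mark a match, here read as TCAAAG or ATCAAAG on the strand of the gene. Such a match describes the letters only and is not a bound site, and both windows belong to the start that lies farthest downstream of those in the table, 4 for Lef1 and 2 for Tnfrsf19.
Lef1, window 4, chr3:131156044-131156343, plus strand: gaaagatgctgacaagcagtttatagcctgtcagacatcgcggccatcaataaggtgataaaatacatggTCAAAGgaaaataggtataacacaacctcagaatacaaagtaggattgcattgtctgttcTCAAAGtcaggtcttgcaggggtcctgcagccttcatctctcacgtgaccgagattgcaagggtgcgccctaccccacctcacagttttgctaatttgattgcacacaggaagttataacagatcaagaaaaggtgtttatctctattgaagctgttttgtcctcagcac
Tnfrsf19, window 2, chr14:61037938-61038237, minus strand: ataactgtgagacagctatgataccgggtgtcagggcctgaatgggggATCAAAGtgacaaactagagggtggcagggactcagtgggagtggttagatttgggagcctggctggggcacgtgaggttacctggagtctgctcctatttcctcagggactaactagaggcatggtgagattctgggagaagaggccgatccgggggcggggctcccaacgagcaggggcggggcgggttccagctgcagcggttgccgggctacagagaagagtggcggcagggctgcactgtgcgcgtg
Axin2, window 1, chr11:108920099-108920398, plus strand: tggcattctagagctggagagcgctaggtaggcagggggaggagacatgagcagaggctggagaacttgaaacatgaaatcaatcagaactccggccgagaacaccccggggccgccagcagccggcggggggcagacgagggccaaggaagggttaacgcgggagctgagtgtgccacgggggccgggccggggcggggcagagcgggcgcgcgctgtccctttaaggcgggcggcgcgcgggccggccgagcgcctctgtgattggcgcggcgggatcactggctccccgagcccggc

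Among the coronary libraries of E13, replicate 1 held the lowest level of 9 of the 10 genes (28.3% of all genes tested), and replicate 3 held the highest of 7 (28.2% of all genes). Of the genes called higher over endocardial libraries, 27.6% had their lowest level in replicate 1 and 25.3% their highest in replicate 3. Tcf7, Nkd1 and Apcdd1 were highest in replicate 4, where 19.0% of all genes were highest. Ccnd1 was lowest in replicate 2 and was nearly level otherwise.

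The genes fell along a range in how much they differed between these libraries. The log2 ratio of replicate 3 over replicate 1 was 2.08 for Notum, 1.88 for Tnfrsf19, 1.85 for Lef1 and 1.22 for Rnf43. It was 0.98 for Axin2, 0.80 for Znrf3 and 0.75 for Tcf7. Apcdd1, Nkd1 and Ccnd1 varied little, at 0.38, 0.26 and 0.01, and the median of the 10 was 0.89, against -0.03 over all genes tested.

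Fibroblast and mesenchymal transcripts were likewise lowest in replicate 1 and highest in replicate 3, and all 11 genes of that list were called higher in E13 coronary than E13 endocardial libraries, as were 7 of 11 mural genes. Their summed level was 2746.4, 5150.1, 6641.1 and 4767.0 CPM in E13 coronary replicates 1 to 4, and each of the 11 genes had its extremes in those 2 libraries. The log2 ratio of replicate 3 to replicate 1 had a median of 1.79 (range 0.66 to 2.17). Dcn, the gene of the matrix protein decorin, had 23.0, 37.8, 52.2 and 39.3 CPM. Summed mural genes stood at 390.0, 625.0, 777.0 and 552.0 CPM, but the genes of that list differed. Of the 11 mural genes, 7 were lowest in replicate 1 and 9 highest in replicate 3. Abcc9, the most abundant of them, instead had 195.0 CPM in replicate 1 and 118.0 CPM in replicate 3, and Kcnj8 had 23.2 and 15.9 CPM. The pan-endothelial sum ran against the fibroblast order, with 9827.2, 7975.4, 7223.3 and 8365.5 CPM, and all 13 of its genes were lowest in replicate 3. The ratios of Notum, Tnfrsf19, Lef1, Rnf43, Axin2, Znrf3 and Tcf7 thus lay within the range of the fibroblast genes, and those of Apcdd1, Nkd1 and Ccnd1 under it. The epicardial sum was 95.3, 81.5, 82.2 and 81.5 CPM and did not follow the fibroblast order, but its genes differed. Wt1, most of that sum, had 76.9, 56.0, 39.8 and 52.2 CPM, whereas Tbx18 had 6.38, 18.9, 32.6 and 15.3 CPM, in the fibroblast order. Of the 8 epicardial genes, 2 were lowest in replicate 1 and 1 was highest in replicate 3. The part of other cells in the levels of the 10 genes was not tested.

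Replicate 1 held the fewest fibroblast transcripts of the coronary libraries but more than the endocardial ones, at a sum of 2746.4 against 1600.9 to 1914.8 CPM. The excess differed widely between the genes of that list. Dpt had 4.71 CPM in replicate 1, against a mean of 0.142 CPM in E13 endocardial libraries, and Col1a1 had 285.0 against 18.2 CPM. Lum had 36.6 against 6.4 CPM and Pdgfra 60.9 against 16.3 CPM, whereas Col5a1 had 530.0 against 427.0 CPM. All of these genes were chosen after their values were seen. The 9 target genes, lowest in replicate 1, lay there above every E13 endocardial library, which restates their lack of overlap. Their margins are taken from the highest endocardial library, unlike the fibroblast values, which stand against endocardial means. The lowest coronary over the highest endocardial level was 6.93 for Lef1, 6.49 for Tnfrsf19 and 4.81 for Notum. It was 4.11 for Rnf43, 3.63 for Apcdd1, 3.3 for Nkd1, 2.96 for Tcf7 and 2.5 for Axin2. Znrf3 had the smallest margin, 1.31.

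**Figure D2:**
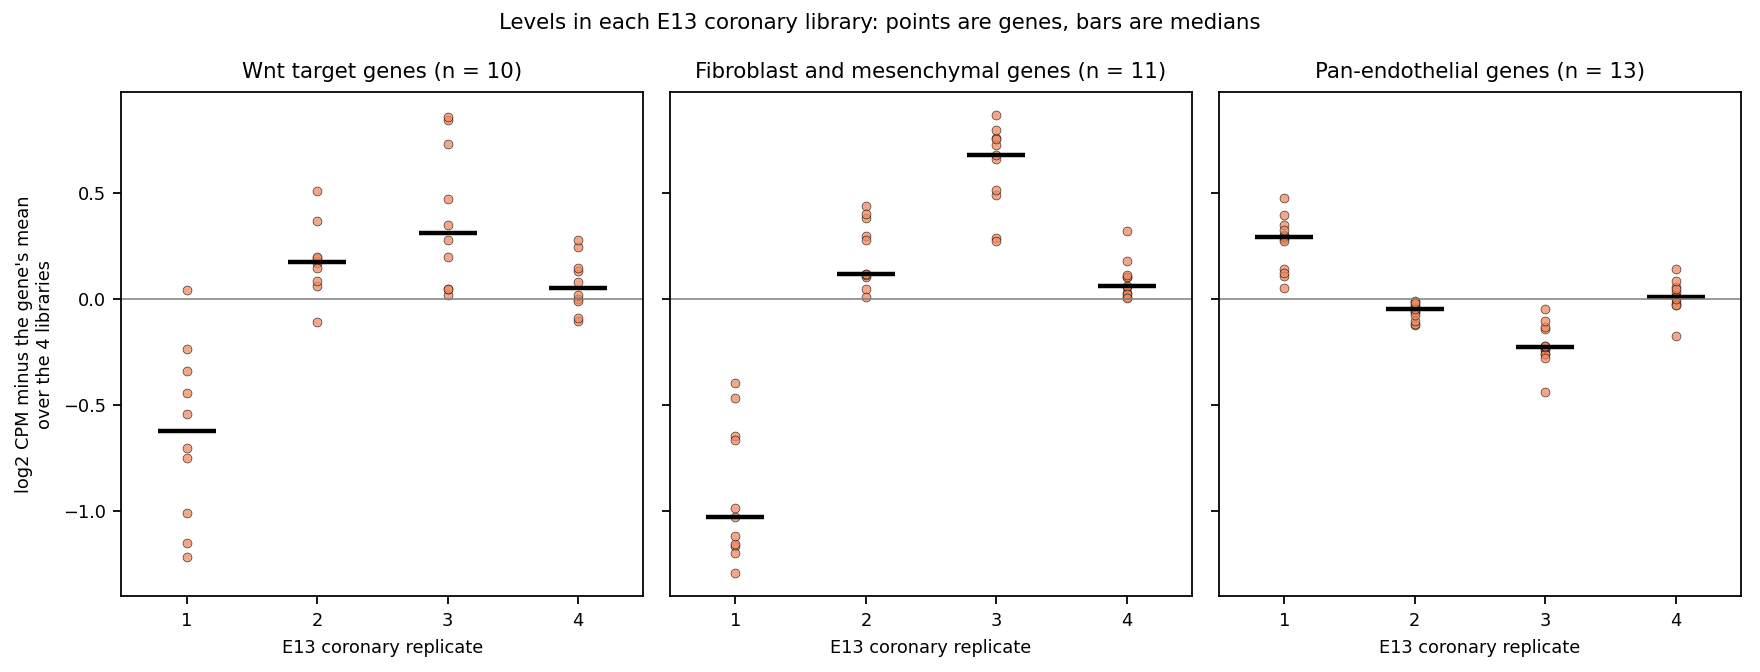
log2 CPM minus the mean of the gene over the 4 E13 coronary libraries, for the 10 Wnt target genes, 11 fibroblast and mesenchymal genes and 13 pan-endothelial genes (points), with the median of each set (bars). Replicate 1 is low and replicate 3 high in the first 2 sets, and the order is turned round in the third.

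At E17 the target genes no longer pointed one way between the populations. Coronary libraries were called higher for 3 genes (26.5% of all genes were) and lower for 4 (26.1% of all genes were), and 3 did not pass. The genes that were lower in coronary libraries were the feedback inhibitors Axin2, Nkd1, Apcdd1 and Notum, while the inhibitors Rnf43 and Znrf3 gave no call. Those that were higher were Tcf7, Ccnd1 and Tnfrsf19.

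Nkd1 had 9.12 and 9.94 CPM in E17 coronary libraries, against 32.8 and 22.0 CPM in E17 endocardial ones, a log2 fold change of -1.53 ± 0.19 (edgeR adjusted p = 2.44e-05). Apcdd1 had 22.6 and 14.3 CPM in coronary libraries, against 42.3 and 35.1 CPM in endocardial ones (-1.08 ± 0.21, edgeR adjusted p = 0.000832). Axin2 had 1.3 and 1.08 CPM, against 3.82 and 2.01 CPM (-1.30 ± 0.41, edgeR adjusted p = 0.017). In all 3 genes both coronary libraries lay under both endocardial ones, which 38.7% of all genes did. Notum was near 0 in E17 coronary libraries, with 1 count in each, against 11 and 12 counts in the endocardial libraries. Its level was 10.7 times lower by pooled counts (95% exact interval 2.63 to 93.2, counting error only), and the fitted value was -3.29 ± 0.95 (edgeR adjusted p = 0.0116).

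Ccnd1 was higher in E17 coronary libraries, at 704.0 and 886.0 CPM, against 232.0 and 331.0 CPM in E17 endocardial ones (1.5 ± 0.15, edgeR adjusted p = 3.82e-06). Both coronary libraries lay far above both endocardial ones, and 37.3% of all genes had no overlap in that direction. Tcf7 stood at 3.29 and 4.61 CPM in coronary libraries, against 0.764 and 1.23 CPM in endocardial ones (2.00 ± 0.38, edgeR adjusted p = 0.000855). Tnfrsf19 had 1.65 and 1.32 CPM, against 0.437 and 0.324 CPM (1.93 ± 0.70, edgeR adjusted p = 0.0352). Of the 2 coronary libraries, replicate 1 had the higher fibroblast sum, while Tcf7 and Ccnd1 were higher in replicate 2. Tnfrsf19 had 24 counts in replicate 1 and 22 in replicate 2, too few to order them. Of the 11 fibroblast genes 6 were called higher and 3 lower in coronary libraries. Mural transcripts also differed between the populations, with a sum of 1125.1 and 863.0 CPM in E17 coronary, against 181.0 and 179.0 CPM in E17 endocardial libraries, and 9 of 11 mural genes were called higher. Abcc9, which did not follow the other mural genes in the E13 coronary libraries, was the largest part of the E17 coronary sum, at a mean of 527.0 CPM. The part of fibroblast and mural transcripts in the levels of the target genes was not tested.

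The other 3 genes gave no call. Lef1 had 0.823 and 0.479 CPM in E17 coronary libraries, against 0.709 and 0.648 CPM in E17 endocardial ones, and the 95% interval of its log2 difference ran from -1.66 to 1.5 (edgeR adjusted p = 0.934). Znrf3 had 4.53 and 5.27 CPM, against 5.4 and 4.93 CPM, with an interval from -0.71 to 0.56 (edgeR adjusted p = 0.838). Rnf43 had 4 counts in each group and no fold is given. Leaving out 1 of the 4 E17 libraries ended some of the calls. Axin2 was lost without E17 coronary replicate 1, E17 coronary replicate 2 or E17 endocardial replicate 1, Notum without either coronary replicate, and Tnfrsf19 without any 1 of the 4. Adjusted p over the alternatives reached 0.213 for Axin2, 0.0759 for Notum and 0.139 for Tnfrsf19, which was also lost with endothelial scaling. That scaling moved the median of all genes by -0.38 and left 22.5% of all calls higher, against 50.4%. Batches 5 and 6 each showed Nkd1, Apcdd1, Axin2 and Notum lower and Tcf7, Ccnd1 and Tnfrsf19 higher in the coronary library. The lack of overlap in these genes fixes those directions.

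Between the stages, the coronary libraries held the larger differences. At E17, 9 of the 10 genes were lower than at E13 in coronary libraries (25.6% of all genes were called lower) and Ccnd1 was higher (24.6% of all genes were called higher). The median log2 fold change of the 10 was -3.05, against -0.02 over all genes tested. This comparison shares the E13 coronary libraries with that of the E13 populations, and 11.4% of all genes tested were both higher in E13 coronary than in E13 endocardial libraries and lower in E17 than in E13 coronary libraries.

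Notum was the most reduced, at 0.0686 and 0.0599 CPM in E17 coronary libraries, against 2.0 to 8.47 CPM in E13 coronary ones. That is 2 counts against 431, 84.1 times lower by pooled counts (95% exact interval 23.1 to 697.0, counting error only), with an edgeR adjusted p of 3.04e-05. Lef1 fell to 0.823 and 0.479 CPM in E17 coronary libraries, against 6.65 to 24.1 CPM in E13 coronary ones (-4.51 ± 0.52, edgeR adjusted p = 1.86e-05). Rnf43 had 4 counts in E17 and 154 in E13 coronary libraries, 15 times lower (95% exact interval 5.75 to 55.8, edgeR adjusted p = 0.000667). For these 3 genes the E17 coronary level was near or under that of the endocardial groups.

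Axin2 stood at 1.3 and 1.08 CPM in E17 coronary libraries, against 6.98 to 13.8 CPM in E13 coronary ones (-3.31 ± 0.37, edgeR adjusted p = 1.32e-05). Tnfrsf19 followed with -3.16 ± 0.49, Apcdd1 with -2.94 ± 0.19 and Nkd1 with -2.79 ± 0.17, with edgeR adjusted p of 0.000188, 2.36e-07 and 1.43e-07. Znrf3 and Tcf7 fell least, by 1.32 ± 0.24 and 1.23 ± 0.30 on the log2 scale (edgeR adjusted p = 0.00064 and 0.00424). All E17 coronary libraries lay under all E13 coronary libraries in each of these 9 genes, as they did in 30.8% of all genes. Without E17 coronary replicate 1 the fall of Tcf7 missed the threshold (-1.01, edgeR adjusted p = 0.0543).

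Marker genes also differed between the coronary stages. Of the 11 fibroblast and mesenchymal genes, 6 were lower in E17 than in E13 coronary libraries, among them Fbln1 (-1.61 ± 0.20, edgeR adjusted p = 2.75e-05) and Mfap4 (-2.81 ± 0.53, edgeR adjusted p = 0.00082), and 2 were higher, Tcf21 and Dpt. With endothelial scaling 6 were lower and 0 higher. Of the 13 pan-endothelial genes 12 were higher and 1 lower. Endothelial scaling makes the sum of these same 13 genes equal in all libraries, so its counts for them, 5 higher and 4 lower, are no check. Of the 11 mural genes 4 were higher and 2 lower, or 4 and 5 with endothelial scaling. The part of these transcripts in the levels of the target genes was not tested.

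Ccnd1 stood out by rising with stage in the coronary libraries, with 704.0 and 886.0 CPM at E17, against 238.0 to 265.0 CPM at E13, without overlap, as in 29.7% of all genes (1.63 ± 0.12, edgeR adjusted p = 5.68e-07). Endothelial scaling moved the median of all genes by -0.89 in this comparison, and 5.1% of all calls were then higher, against 49.0%. Under it Ccnd1 stayed higher at 0.73 and the other 9 genes stayed lower. Relative to the shift Ccnd1 lay at 1.62 and the 9 between -6.24 and -1.26, close to the usual values by construction and no separate check.

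In the endocardial libraries, 2 of the 10 genes were higher at E17 than at E13 (16.2% of all genes were called higher) and none was lower (15.6% of all genes were). Nkd1 had 32.8 and 22.0 CPM in E17 endocardial libraries, against 13.7 to 16.9 CPM in E13 endocardial ones (0.85 ± 0.15, edgeR adjusted p = 0.00101). Apcdd1 had 42.3 and 35.1 CPM, against 25.0 to 30.3 CPM (0.53 ± 0.17, edgeR adjusted p = 0.0298). Both genes were thus above their E13 endocardial range in both E17 libraries, as was Notum (26.7% of all genes were). The call of Apcdd1 was lost in 5 alternatives, with adjusted p up to 0.26, of which 1 leaves out E17 endocardial replicate 1 (0.39). Of the 8 genes without a call, the nearest to the threshold were Notum at 1.23 ± 0.58 (edgeR adjusted p = 0.133, and 0.0316 without E13 coronary replicate 1) and Tcf7 at -0.71 ± 0.36 (edgeR adjusted p = 0.153). Ccnd1 gave -0.11 ± 0.13 (edgeR adjusted p = 0.57), from 232.0 and 331.0 CPM at E17 and 287.0 to 329.0 CPM at E13, and it was called lower without E17 endocardial replicate 2 (-0.39, edgeR adjusted p = 0.0452). Of the 11 fibroblast genes, 5 were higher and 1 lower at E17 in the endocardial libraries, and their part was not tested. Endothelial scaling moved the median of all genes by -0.11, and 38.9% of calls were then higher, against 51.0%.

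**Figure D3:**
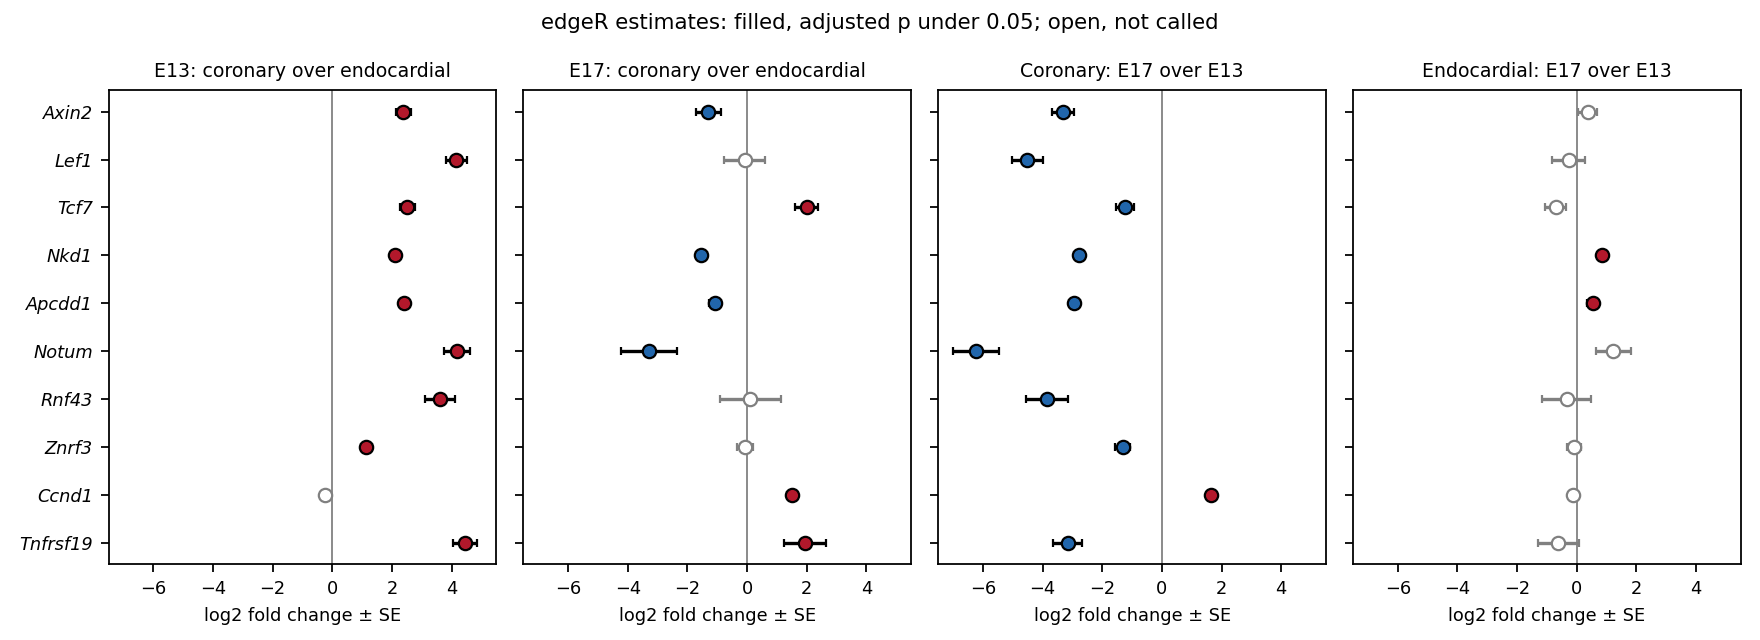
log2 fold change ± SE from edgeR for the 10 genes in 4 comparisons, with filled points for genes called (red higher, blue lower) and open points for the others. At E13 the filled points lie to the right and between stages in coronary libraries to the left, with Ccnd1 apart from the other 9 in both. The Rnf43 value of the E17 panel rests on 4 counts in each group.

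The difference between populations itself changed with stage. The coronary minus endocardial effect was lower at E17 than at E13 in 8 genes (16.5% of all genes were called lower) and higher in Ccnd1 (16.2% of all genes were called higher). For Nkd1 the change was -3.64 ± 0.22, for Apcdd1 -3.47 ± 0.25, for Axin2 -3.68 ± 0.48 and for Lef1 -4.24 ± 0.79, with edgeR adjusted p of 5.12e-07, 1.55e-06, 0.000107 and 0.0015. Notum gave -7.47 ± 0.99 (edgeR adjusted p = 0.000133), a fitted value that rests on 2 counts in the E17 coronary libraries. Ccnd1 gave 1.74 ± 0.18 (edgeR adjusted p = 1.96e-05). Of the 11 fibroblast genes 6 were also lower and 0 higher in this test, and of the 13 pan-endothelial genes 10 were higher and 1 lower. With endothelial scaling, which fixes the sum of these 13 genes, their counts were 4 and 4, and this is no check. The part of these fibroblast and endothelial transcripts was not tested. Tcf7 was the gene whose population difference was not called as changed (-0.51 ± 0.46, 95% interval -1.58 to 0.55, edgeR adjusted p = 0.437), and it was higher in coronary libraries at both stages. Znrf3 (-1.21 ± 0.33, edgeR adjusted p = 0.0139), Tnfrsf19 (-2.53 ± 0.89, edgeR adjusted p = 0.0462) and Rnf43 (-3.50 ± 1.2, edgeR adjusted p = 0.0418) passed with less room. Over the alternatives their adjusted p reached 0.059, 0.242 and 0.358. Tnfrsf19 lost its call in 9 of 18 alternatives and Rnf43 in 10 of 18, among them the batch as a block (-3.49, edgeR adjusted p = 0.104). Leaving out E17 endocardial replicate 1 or E17 coronary replicate 1 ended the calls of all 3. Endothelial scaling moved the median of all genes by -0.78, left 3.7% of calls higher, against 49.7%, and brought Tcf7 past the threshold (-1.32, edgeR adjusted p = 0.0383). Relative to the shift Tcf7 lay at -0.54, close to its usual value by construction.

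Ordered by mean level, E13 coronary libraries stood first for 9 genes and were separate from the next group in each. The orders below them differed. For Nkd1, Apcdd1 and Notum the order was E13 coronary, E17 endocardial, E13 endocardial and E17 coronary, with no overlap between neighbours. Axin2 had the same order, but its E17 and E13 endocardial libraries overlapped. In Tcf7 and Tnfrsf19 the E17 coronary libraries came second, above both endocardial groups, which overlapped. In Lef1, Rnf43 and Znrf3 the 3 other groups overlapped from one to the next. Ccnd1 had the E17 coronary libraries first and apart, and its 3 other groups overlapped in the same way.

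The rest of the pathway was read from lists of genes chosen by function. The lists were made with earlier results of these data known, so their counts give no independent support. Of all genes, 30.1% were called higher and 29.9% lower in E13 coronary over E13 endocardial libraries. Between E17 and E13 coronary libraries the shares were 24.6% higher and 25.6% lower. Among 12 tested genes reported elsewhere as Wnt targets, E13 coronary libraries were higher in 9 and lower in 0, and the median log2 fold change was 1.3 (-0.02 over all genes tested). Sox17, an endothelial transcription factor gene of arteries, was higher by 3.13 ± 0.19 (49.3 ± 15 CPM in E13 coronary, 5.62 ± 0.565 CPM in E13 endocardial libraries), and Cd44, a hyaluronan receptor gene, by 1.82 ± 0.08, with edgeR adjusted p of 5.41e-08 and 5.65e-09. Prox1 lay at -0.16 ± 0.11 (edgeR adjusted p = 0.218). Between the coronary groups, E17 libraries were lower in 9 of these 12 and higher in Sox17 and Cd44, whose E17 levels of 134.0 and 82.6 CPM stood against 49.3 and 61.7 CPM at E13 (edgeR adjusted p = 4.38e-05 and 0.00224). With endothelial scaling 1 of the 12 was higher and 11 were lower, Cd44 among them. Myc was level, at -0.01 ± 0.15 (edgeR adjusted p = 0.966).

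Wnt ligand genes were also higher in E13 coronary libraries, 8 of 11 tested with 0 lower and a median of 2.06 (30.1% of all genes were higher and 29.9% lower). Wnt9b averaged 150.0 ± 33.6 CPM in E13 coronary and 2.39 ± 0.362 CPM in E13 endocardial libraries (5.99 ± 0.25, edgeR adjusted p = 4.48e-09). Wnt11, known for signalling without beta-catenin, gave -0.03 ± 0.07 (edgeR adjusted p = 0.754). In E17 coronary libraries 9 of the 11 ligand genes were lower than at E13, such as Wnt4 with 11.6 ± 0.832 CPM in E17 and 137.0 ± 25.4 CPM in E13 libraries (-3.57 ± 0.26, edgeR adjusted p = 4.9e-07), 0 were higher, and the median was -3.06. Rspo3 encodes a secreted protein that spares Frizzled from Rnf43 and Znrf3. It was higher by 4.53 ± 0.48 in E13 coronary over E13 endocardial libraries (edgeR adjusted p = 5.91e-06) and fell by 4.84 ± 0.70 in E17 against E13 coronary libraries (edgeR adjusted p = 0.00011). Wls, needed to secrete Wnt proteins, was lower in E13 coronary than E13 endocardial libraries (-0.95 ± 0.06, edgeR adjusted p = 1.24e-07).

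Receptors and the intracellular machinery showed no such common direction at E13, with medians of 0.02 for receptors, -0.09 for the cytoplasmic relay and -0.30 for nuclear effectors. Of 21 receptor and co-receptor genes, 7 were higher in E13 coronary libraries, among them Ror2 (2.80 ± 0.24, edgeR adjusted p = 8.73e-07), and 7 were lower, among them Lrp5 (-0.89 ± 0.06, edgeR adjusted p = 8.47e-08). Cytoplasmic relay and destruction complex genes counted 4 higher (Gsk3a, Tnks2, Apc2 and Fbxw11) and 7 lower of 17, with small differences such as Apc at -0.51 ± 0.05 (edgeR adjusted p = 1.24e-06). Of 16 nuclear effector genes, 10 were lower and Ctnnbip1, an inhibitor of the binding of beta-catenin to TCF, was the only one higher (0.70 ± 0.09, edgeR adjusted p = 4e-05). Tcf7l1, a TCF that mostly represses, was lower (-0.98 ± 0.10, edgeR adjusted p = 5.65e-06), opposite to Tcf7 and Lef1. With endothelial scaling these counts turned to 12 higher and 5 lower for receptors, 10 and 1 for the cytoplasmic relay and 5 and 1 for nuclear effectors, whereas other targets (10 and 0), ligands (10 and 0) and inhibitors (11 and 1) kept their direction. Ctnnbip1 was higher again in E17 over E13 coronary libraries, with 244.0 ± 23.5 and 68.9 ± 8.81 CPM (1.83 ± 0.11, edgeR adjusted p = 9.25e-08).

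Secreted and membrane inhibitors outside the 10 genes were higher in E13 coronary libraries in 9 of 13 (30.1% of all genes were), with a median of 2.60. They were lower in 2 (29.9% of all genes were), Sost (-0.84 ± 0.11, edgeR adjusted p = 2.7e-05) and Kremen1 (-0.37 ± 0.05, edgeR adjusted p = 5.63e-05). Dkk2 averaged 22.3 ± 0.352 CPM in E13 coronary and 0.822 ± 0.172 CPM in E13 endocardial libraries (4.77 ± 0.20, edgeR adjusted p = 4.75e-09), and it was level across the 4 coronary libraries, from 22.0 to 22.8 CPM. Dkk3 (4.82 ± 0.36, edgeR adjusted p = 3.33e-07) instead had 52.4, 138.0, 170.0 and 105.0 CPM in coronary replicates 1 to 4, in the order of the fibroblast sum. In E17 coronary libraries 10 of the 13 were lower than at E13 and 0 were higher, with a median of -2.11.

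Ccnd1 was set beside its partners. Ccnd2 and Ccnd3, the other D-type cyclins, were lower in E13 coronary than in E13 endocardial libraries (-1.77 ± 0.10 and -0.69 ± 0.06, edgeR adjusted p = 2.71e-08 and 1.51e-06), and Ccnd2 was lower at E17 too (-2.19 ± 0.14, edgeR adjusted p = 1.04e-07), where Ccnd1 was higher. In a list of 20 genes of the cell cycle, 19 were called higher in coronary libraries at E17, with a median of 1.22 (26.5% of all genes were called higher). At E13, 17 were called higher, with a median of 0.70 (30.1% of all genes were), and 1 was called lower (29.9% of all genes were). Mki67 averaged 585.0 ± 35.2 CPM in E17 coronary and 159.0 ± 30.5 CPM in E17 endocardial libraries (1.88 ± 0.13, edgeR adjusted p = 2.33e-07). Between E17 and E13 coronary libraries, where Ccnd1 was higher at E17, Mki67 was the 1 cell cycle gene of 20 called higher (0.43 ± 0.11, edgeR adjusted p = 0.00555) and 7 were lower, and with endothelial scaling all 20 were lower.

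**Figure D4:**
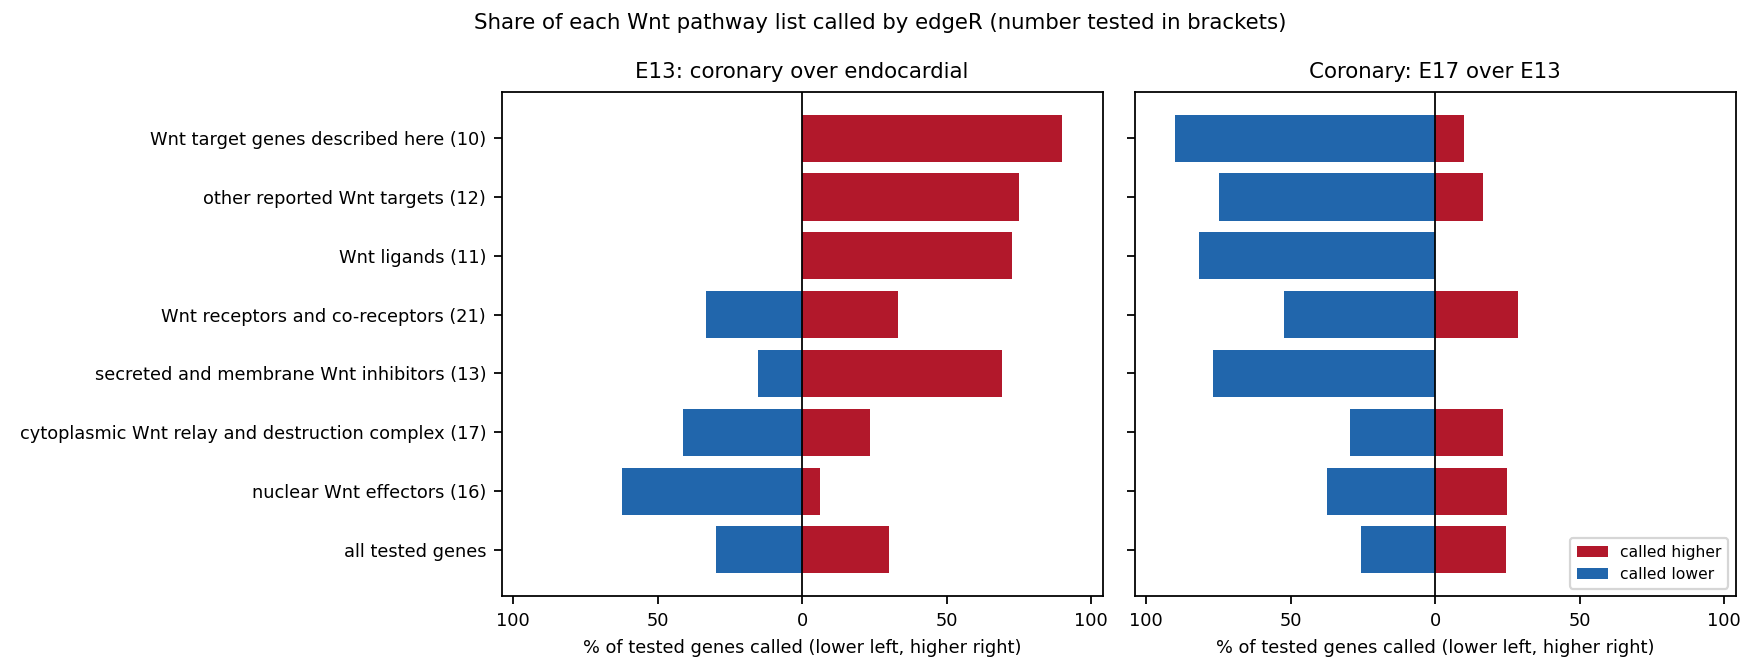
Percentage of the tested genes of each Wnt pathway list called higher (right, red) or lower (left, blue) by edgeR, for E13 coronary over E13 endocardial and for E17 over E13 coronary libraries, with all tested genes in the last row. Targets, ligands and inhibitors stand mostly to the right in the first panel and to the left in the second, while receptors, relay and nuclear genes are divided or more often lower in the first, where endothelial scaling gave more higher than lower calls in each of these 3 lists.

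The genes most like each member were found by the mean absolute difference of centred log2 CPM over the 12 libraries, among 12167 genes. Axin2, Nkd1 and Apcdd1 were close to each other, with differences of 0.25 between Axin2 and Apcdd1, 0.26 between Nkd1 and Apcdd1 and 0.29 between Axin2 and Nkd1. Ptgis, the prostacyclin synthase gene, was nearest to both Axin2 (0.21) and Apcdd1 (0.14), and Olfml2a was nearest to Nkd1 (0.21). Lef1 was the gene nearest to Notum (0.64), and Lef1 and Tnfrsf19 differed by 0.50. Nearest to Tnfrsf19 was Tagln (0.24), a gene of contractile cells that stood at 27.4, 102.0, 134.0 and 82.6 CPM in E13 coronary replicates 1 to 4. Fbln1, a matrix gene of the fibroblast list, was among the 3 nearest to Tcf7 (0.30). Adgrb2 was nearest to Lef1 (0.34), Kcnmb4 to Tcf7 (0.27) and Nanos1 to Znrf3 (0.18). Ccnd1 had Scarb1 and Kifc3 as its nearest genes (0.12 each), and its distance from the other 9 members ran from 0.80 to 2.14.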

How the data were processed

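Groups came from the sample labels and batches from the batch label. The deposited table holds expected counts per gene made by the authors, of which 18.3% are not whole. The tools named in the submitters' processing notes are RSEM 1.2.3, CASAVA 1.8.2 and cutadapt 1.3, with GRCm38 as the build. Their settings are not stated there. RSEM shares reads that fit several genes by an estimate. Per the labels' protocols, polyadenylated RNA gave NEBNext Ultra libraries read as single reads, which do not mark strand, so genes that overlap on opposite strands (Ccnd1, Notum, Axin2, Lef1) are uncertain to that extent.

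Expected counts were rounded. Genes were kept by filterByExpr (minimum count 10, total 15). edgeR 4.0.16 in R 4.3.3 fitted 4 group means to 12 libraries with TMM scaling and a quasi-likelihood test (8 residual degrees of freedom, biological coefficient of variation 0.126). P-values were Benjamini-Hochberg adjusted over the 15171 genes tested in each of 5 comparisons, with a threshold of 0.05. The SE was derived from each log2 fold change and its F statistic, and gave the 95% intervals. Count ratios pool the counts of a group over its summed effective (TMM-scaled) library sizes. Symbols, coordinates and exon lengths come from GENCODE of GRCm38. The test was checked on simulated counts.

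The members and all gene lists were chosen with earlier results of these data known. Named list genes were taken by a rule: per list, comparison and direction, the 2 with the smallest adjusted p among those called with at least 5 CPM, every gene where 5 or fewer were called, and the most abundant gene not called. The text gives some of these. For members of at least 1 CPM, the 3 nearest genes were found. Alternatives were DESeq2 1.42.0 (size factors, Wald test), other filters, scaling to pan-endothelial genes, batch as a block, only the 2 groups compared, and each library left out.

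Replicates differed by more than counting noise (chi-square per gene 4.39 to 39.3), so none was merged. The shared batch label pairs a coronary with an endocardial library. Over 9481 genes, deviations from group means correlated at 0.41, 0.694, 0.405 and 0.491 within E13 batches 1 to 4, from -0.508 to 0.477 between them. Within E17 batches the value was 0.396. With 2 libraries a group, deviations mirror each other, so both E17 batches give the same value and the value between them is its negative, -0.396.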

Additional observations from a re-analysis of the deposited data

Results flagged for a closer look

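Axin2 in E13 coronary replicate 1, at 6.98 CPM, lay far from the other 3 coronary libraries, with a gap to the nearest of 0.873 of the range of the group, above Dixon's limit. This was 1 of 20 groups of 4 libraries examined, and chance gives about 1 in 20. That library also held the lowest fibroblast and mesenchymal sum of its group, 2746.4 CPM, and the part of that in the Axin2 level was not tested. Without it the E13 log2 fold change of Axin2 was 2.59.

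The coronary minus endocardial effect differed between E17 and E13, by the interaction test in edgeR, in 9 of the 10 genes. In that test 16.5% of all genes were called lower and 16.2% higher. The log2 change was -3.68 for Axin2, -4.24 for Lef1, -3.64 for Nkd1, -3.47 for Apcdd1, -7.47 for Notum, -3.50 for Rnf43, -1.21 for Znrf3, -2.53 for Tnfrsf19 and 1.74 for Ccnd1. In Axin2, Nkd1, Apcdd1 and Notum the effect also had opposite signs at the 2 stages, with both calls past the threshold. The share of all genes with opposite calls was not counted. The E17 calls of Axin2 and Notum were lost when some single E17 libraries were left out. Stage cannot be told apart from tamoxifen, the added alleles or the sorting gates.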

How the results depend on the processing

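Of the alternatives run for the 10 genes in 5 comparisons, 861 kept direction and call, 37 lost a call, 8 gained one and 11 changed sign. The count of 9 genes higher at E13 held in 19 of 19 alternatives. The count lower at E13 was 1 in place of 0 with the replicate block and with only the 2 groups compared, each time Ccnd1, and 0 to 1 over the libraries left out in turn. At E17, genes called lower in coronary libraries ranged from 2 to 4 over the left-out libraries, with 2 without either E17 coronary replicate. In endocardial libraries, genes called higher at E17 numbered 1 with endothelial scaling and 1 to 3 over the left-out libraries, and genes called lower 0 to 1. The interaction had 9 genes lower with endothelial scaling, 7 with the replicate block and 5 to 8 over the left-out libraries, with 5 without E17 endocardial replicate 1 or E17 coronary replicate 1. The replicate block changed the calls of Ccnd1 at E13 and Rnf43 in the interaction (-3.49) and no other member call. No paired analysis was possible because each batch holds 1 stage, for the 2 stage comparisons.

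The genes that changed sign had no call with the usual settings. With endothelial scaling, Ccnd1 at E13 was 0.16 and Rnf43 at E17 was -0.27. With a library left out, the E17 population difference ranged from -0.72 to 0.91 for Rnf43, -0.19 to 0.05 for Znrf3 and -0.48 to 0.27 for Lef1. The endocardial stage difference ranged from -1.14 to 0.17 for Rnf43, -0.19 to 0.01 for Znrf3, -0.18 to 0.75 for Axin2 and -0.39 to 0.13 for Ccnd1, which was called lower at its lowest. The cause was not tested. Over all genes, counts moved by over 1.5 times with endothelial scaling to 7956 higher and 1260 lower at E13 (usual scaling 4568 and 4538), 1832 and 6298 at E17 (4022 and 3955), 622 and 11629 between coronary stages (3725 and 3879), 366 and 9655 in the interaction (2465 and 2497) and 1223 higher between endocardial stages (2462). They also moved in the endocardial stage comparison without an E17 endocardial library, to 1605 higher and 1323 lower without replicate 1 and 1578 higher without replicate 2 (2462 and 2368 with both). Notum and Rnf43 had too few counts to be tested in some fits of only 2 groups.

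With 2 libraries a group at E17, and 2 counts of Notum and 4 of Rnf43 in the E17 coronary libraries, changes of these genes below the intervals given could not be seen. Whether the E17 coronary libraries are arterial and capillary or venous is unknown here, and a left-out E17 library leaves 1 sample, assumed to vary like the other groups.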
